A study of Mus musculus with 12 samples.

Results

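The cyclic nucleotide phosphodiesterases described here were 8 genes, Pde1b, Pde2a, Pde3b, Pde4a, Pde4b, Pde4d, Pde7a and Pde8a, chosen by name and found by their gene symbol among the 52636 genes counted. The samples were primary mouse myeloid cells from the bone marrow of C57BL/6J animals, aged 8 to 12 weeks by the study's methods, and the question was how a 4 h exposure to the sensory neuropeptide calcitonin gene-related peptide (CGRP) changed their transcripts. Neutrophils, enriched with a negative-selection kit and held in RPMI medium, received 1 nM CGRP or PBS, the saline vehicle. Monocytes, isolated with a second kit and grown for 3 days in DMEM/F12 with 10 ng/ml macrophage colony-stimulating factor, received the same peptide or vehicle and are called macrophages below. Each of the 4 groups had 3 libraries, 12 in all. No source used here says whether the libraries of a group came from separate mice, so each p-value measures the spread between these libraries, which may be technical.

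Cyclic AMP (cAMP) is the second messenger through which the CGRP receptor, a dimer of CALCRL and RAMP1, acts through a stimulatory G protein and adenylyl cyclase. Phosphodiesterases end the signal by hydrolysing cAMP, cGMP or both to the inactive monophosphates. The PDE4 family is the main cAMP-specific activity of neutrophils and macrophages and the target of rolipram and related anti-inflammatory drugs, and cAMP is known to induce some PDE4 transcripts, which makes these enzymes part of a negative feedback loop.

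Libraries were primed from the poly(A) tail and molecules were tagged with 10-base unique identifiers, so a count stands for a gene and does not separate isoforms. Library totals ran from 2002559 to 3631989 counts, and replicate 3 was the smallest library of each group. A level is given in counts per 1000000 counts of the library (CPM), adjusted between the 12 libraries with TMM factors. A count of 3, taken as the floor of detection, was worth 0.826 to 1.498 CPM before that scaling and covers counting error only. The labelled cell types were visible in their markers. The 10 neutrophil markers, led by S100a8, summed to 148500 to 225700 CPM in neutrophils and 295.6 to 436.7 CPM in macrophages. The 10 macrophage markers, led by C1qb in macrophages, summed to 11000 to 13510 CPM in macrophages and 637.2 to 764.7 CPM in neutrophils.

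The promoter windows of Pde4b and Pde8a, the members with the highest PBS levels, are shown because cAMP-response elements lie in many promoters that cAMP regulates. Pde4b spans chr4:102087543-102607259 on the plus strand of GRCm38 and has 9 annotated coding transcripts with 9 start sites, whereas Pde8a, at chr7:81213596-81334533 on the plus strand, has 1. Pde3b lies at chr7:114415281-114539251, Pde2a at chr7:101421691-101512827, Pde4a at chr9:21165714-21213248, Pde4d at chr13:108449948-109953461 and Pde1b at chr15:103503034-103530052, all on the plus strand, and Pde7a at chr3:19223108-19311322 on the minus strand. The sequences are RefSeq promoter windows of the GRCm38.p6 build, 250 bases before to 50 bases after a start site, at chr4:102421305-102421604 for Pde4b and chr7:81213015-81213314 for Pde8a. The Pde4b window is the one with a half-site of its 4 windows, and the RefSeq start of Pde8a lies upstream of the gene start given above, which is that of GENCODE. Capitals mark the half-site of the cAMP-response element, TGACG or, on the opposite strand, CGTCA.
Pde4b promoter: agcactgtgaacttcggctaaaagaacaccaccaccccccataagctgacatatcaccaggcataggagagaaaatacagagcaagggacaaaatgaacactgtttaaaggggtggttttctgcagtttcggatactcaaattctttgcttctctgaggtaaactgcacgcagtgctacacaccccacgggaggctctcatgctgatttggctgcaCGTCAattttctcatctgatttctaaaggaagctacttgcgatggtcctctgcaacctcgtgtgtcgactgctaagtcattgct
Pde8a promoter: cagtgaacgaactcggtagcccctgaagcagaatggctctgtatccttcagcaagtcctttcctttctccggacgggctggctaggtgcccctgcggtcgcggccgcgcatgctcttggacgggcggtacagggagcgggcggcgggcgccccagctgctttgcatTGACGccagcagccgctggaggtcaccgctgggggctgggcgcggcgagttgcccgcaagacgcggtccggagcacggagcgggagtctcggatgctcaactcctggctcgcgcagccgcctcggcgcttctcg
RefSeq windows were found for 6 of the 8 members, Pde3b and Pde7a being the others, and they held 17 start sites. The half-site was present in 4 of these 17 windows, 1 each of Pde2a, Pde4a, Pde4b and Pde8a, and in 20.8% of all 32851 windows. The complete element TGACGTCA was in 0 member windows and in 1.79% of all windows. A match describes these letters in these windows, and the counts do not show which start site was used.

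In macrophages, CGRP raised Pde4b 11-fold and Pde3b 8.52-fold. Pde4b, the PDE4 gene tied to inflammatory signalling in myeloid cells, was at 12.3, 11.65 and 12.54 CPM in the 3 PBS libraries and at 138.4, 132.9 and 131.4 CPM in the 3 CGRP libraries. The groups were far apart and each was tight, with means of 12.16 ± 0.461 CPM and 134.2 ± 3.66 CPM (SD, n = 3). The log2 change was 3.46 (SE 0.19), which is a 95% confidence interval of 8.34- to 14.4-fold (limma-voom, adjusted p = 7.99e-09). By p-value, Pde4b ranked 4 among the 9393 genes tested in macrophages.

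Pde3b, which encodes a cAMP hydrolase that cGMP inhibits, was at 5.719, 6.87 and 5.733 CPM with PBS and at 38.42, 59.66 and 69.22 CPM with CGRP in macrophages. Replicate 1 was the lowest of the CGRP libraries, and all 3 lay above every PBS library. The log2 change was 3.09 (SE 0.31), an interval of 5.42- to 13.4-fold (limma-voom, adjusted p = 7.57e-06). Neither of these increases lost its call when any 1 library was left out.

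The remaining members did not pass the test in macrophages or were too scarce to be tested. Pde8a, a high-affinity cAMP-specific enzyme, was at 17.16, 13.74 and 12.9 CPM with PBS and at 18.74, 27.99 and 25.58 CPM with CGRP. These groups did not overlap, but the log2 difference of 0.68 missed the threshold (limma-voom, adjusted p = 0.0935), passing it without CGRP replicate 1, where the difference was 0.88 (adjusted p = 0.027). Over its 15 alternatives the adjusted p ran from 0.027 to 0.354. Pde7a, another cAMP-specific enzyme, was at 1.716, 1.792 and 2.508 CPM with PBS and at 4.061, 7.365 and 4.012 CPM with CGRP. Its groups did not overlap either, on 6 to 20 counts per library, and the log2 difference was 1.30 (limma-voom, adjusted p = 0.102). Pde4a was at 6.863, 2.987 and 3.583 CPM with PBS and at 3.436, 4.051 and 2.508 CPM with CGRP. These overlapped, and the difference of -0.32 (adjusted p = 0.757) changed sign without PBS replicate 1, the highest library, to 0.06.

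Pde4d, Pde1b and Pde2a did not reach the count filter in macrophages. Pde4d, a further cAMP-specific PDE4 gene, gave 2, 4 and 0 counts with PBS and 10, 7 and 2 counts with CGRP. Pde1b, activated by calcium and calmodulin, gave 7, 10 and 5 counts with PBS and 16, 3 and 3 with CGRP. Pde2a, a cAMP hydrolase that cGMP stimulates, gave 1 count over the 3 PBS libraries and 1 count over the 3 CGRP libraries, below the floor in both groups. Without the filter, Pde4d had a log2 difference of 2.08 (limma-voom, adjusted p = 0.089).

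Thus 2 of the 5 members tested in macrophages rose with CGRP and 0 fell, and 4 of the 5 did not overlap between groups. At an unadjusted p under 0.05, 4 were higher and 0 lower, where 19.8% of all genes had such a p in either direction, and edgeR and DESeq2 called the same 2. Among all 9393 genes tested there, 7.43% passed the test, 3.46% as higher and 3.97% as lower, and 24.1% did not overlap. The 5 members are those that reached the count filter. Pde7a, with 6 to 7 counts per PBS library and 8 to 20 per CGRP library, met it through the CGRP libraries, where it was higher. Its place among the members that were higher or did not overlap is therefore no support for a direction. The 3 members left out were scarce in both groups, so the count describes these 5 and not the family.

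**Figure D1:**
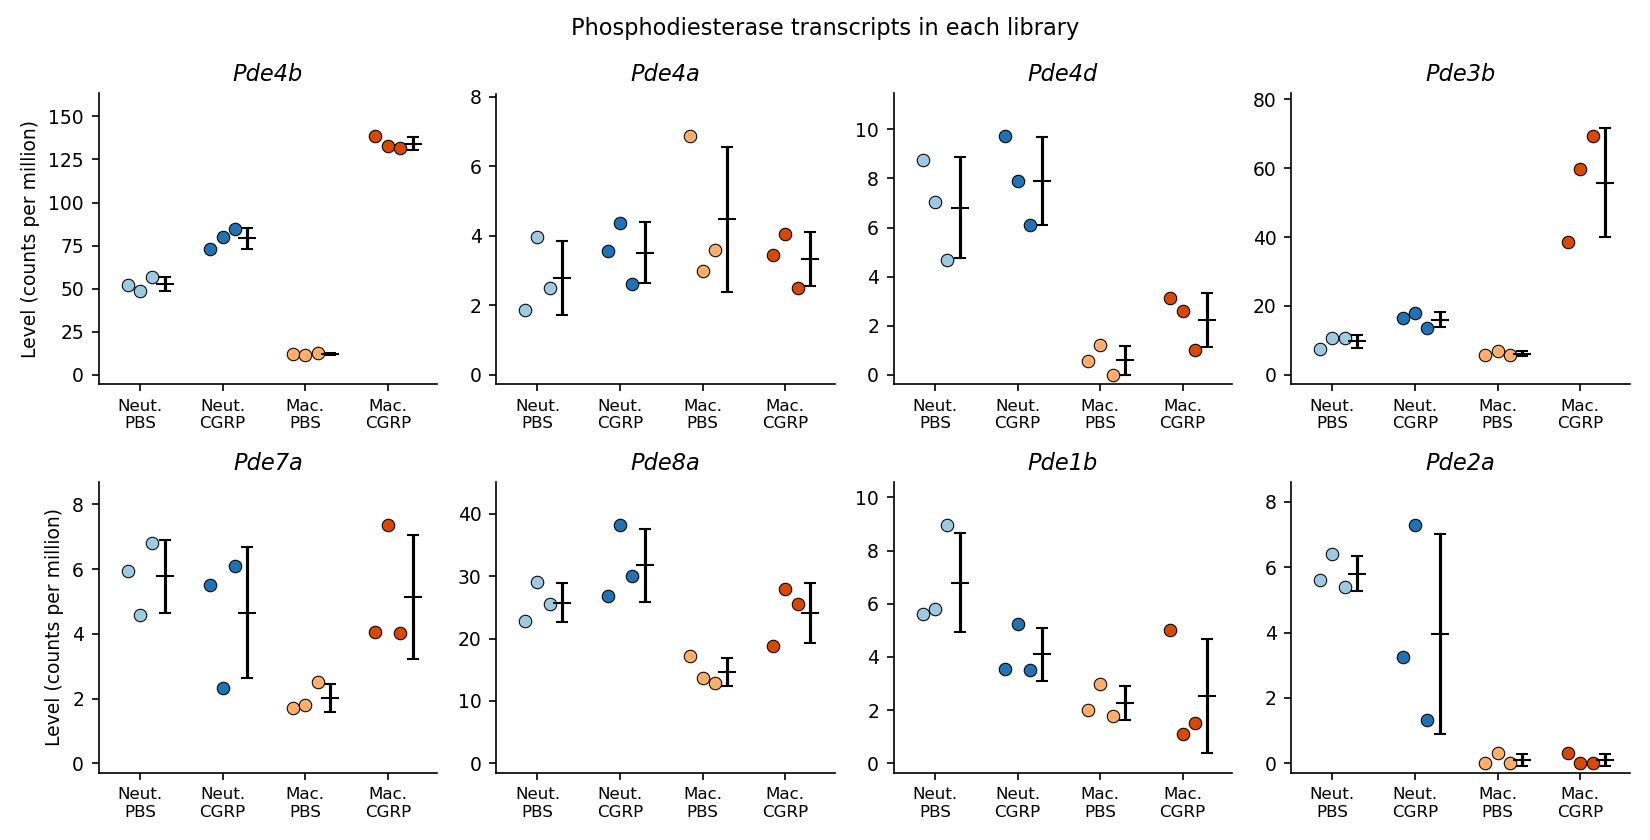
Level of each phosphodiesterase in CPM (linear axis, TMM-scaled; axes differ between panels) in neutrophils (Neut.) and macrophages (Mac.) given PBS or CGRP. Each point is 1 library, and the bar beside it is the mean ± SD of 3 libraries. The Pde4b libraries of CGRP-treated macrophages lie between 131.4 and 138.4 CPM, above all others.

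In neutrophils, CGRP raised Pde4b 1.52-fold, and no other member passed the test. Pde4b was at 52.17, 48.61 and 56.68 CPM with PBS and at 72.84, 80.27 and 84.65 CPM with CGRP. The groups did not overlap, with means of 52.49 ± 4.04 and 79.26 ± 5.97 CPM (SD, n = 3). The log2 change was 0.60 (SE 0.12), an interval of 1.28- to 1.8-fold (limma-voom, adjusted p = 0.00501). Without PBS replicate 2, the lowest library, the change was 0.54 and missed the threshold (adjusted p = 0.0633). Over the 15 alternatives run for this value the adjusted p lay between 0.00296 and 0.0633.

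Pde3b was at 7.497, 10.7 and 10.76 CPM with PBS and at 16.51, 17.8 and 13.53 CPM with CGRP in neutrophils. Every CGRP library was above every PBS library, but the log2 difference of 0.77 (SE 0.23) did not pass (limma-voom, adjusted p = 0.0974). Its 95% interval ran from 1.22- to 2.38-fold and was that of a single gene, before adjustment over all genes. Pde1b, whose product hydrolyses both cyclic nucleotides, was at 5.623, 5.809 and 8.968 CPM with PBS and at 3.561, 5.254 and 3.491 CPM with CGRP. The CGRP libraries were the lower ones without overlap, and the log2 difference was -0.64 (adjusted p = 0.461).

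The other members overlapped between the neutrophil groups. Pde8a was at 22.8, 29.05 and 25.47 CPM with PBS and at 26.87, 38.24 and 30.11 CPM with CGRP (log2 difference 0.31, limma-voom, adjusted p = 0.482). Pde2a was at 5.623, 6.421 and 5.381 CPM with PBS and at 3.238, 7.297 and 1.309 CPM with CGRP, so that its CGRP libraries held both its highest and its lowest value (log2 difference -0.69, adjusted p = 0.552). Without 1 library the Pde2a difference ran from -1.31 to -0.22 and was never called. Pde4d ranged from 4.664 to 8.747 CPM with PBS and from 6.109 to 9.713 CPM with CGRP, Pde7a from 4.586 to 6.816 and from 2.335 to 6.109 CPM, and Pde4a from 1.874 to 3.975 and from 2.618 to 4.378 CPM. Their log2 differences were 0.25, -0.43 and 0.40 (adjusted p = 0.806, 0.702 and 0.767, limma-voom), and that of Pde7a turned to 0.04 without CGRP replicate 2.

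All 8 members were tested in neutrophils. With CGRP 1 rose, 0 fell and 7 did not pass, while 3 did not overlap between groups. At an unadjusted p under 0.05, 2 were higher and 0 lower, where 12.8% of all genes had such a p in either direction, and edgeR and DESeq2 called Pde4b alone. Of all 9819 genes tested in neutrophils 2.53% passed, 1.51% as higher and 1.02% as lower, and 17.6% did not overlap. The median log2 change was 0.28 over the members and 0.000801 over all genes.

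**Figure D2:**
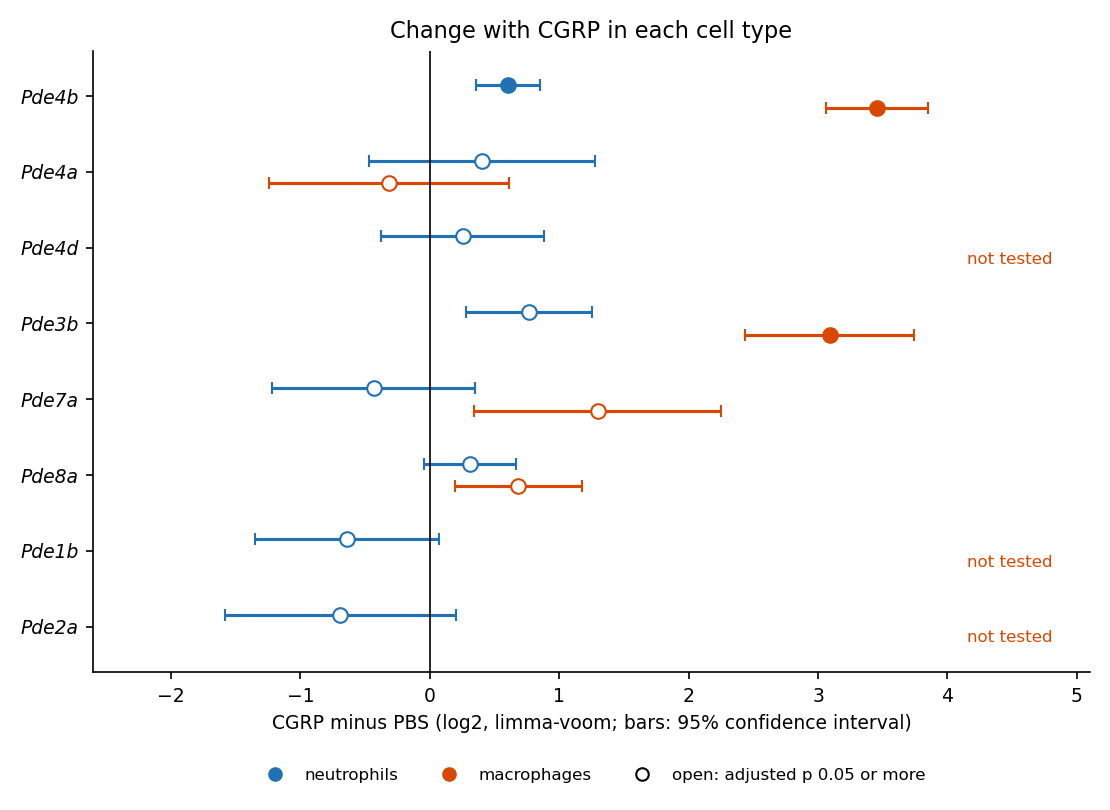
Log2 difference between CGRP and PBS for each member in neutrophils (blue) and macrophages (orange), with 95% confidence intervals from limma-voom. Filled points passed an adjusted p of 0.05, open points did not, and 3 members were not tested in macrophages. The Pde4b points stand at 0.60 and 3.46.

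Pde4b and Pde3b responded more strongly in macrophages than in neutrophils. The difference between the log2 changes in the 2 cell types was 2.86 for Pde4b (SE 0.21, limma-voom interaction, adjusted p = 1.98e-08), which ranked 1 by p-value of 10694 genes. For Pde3b it was 2.33 (SE 0.41, adjusted p = 0.00146). Both kept their calls without any single library. The other 6 members did not pass the test, with differences from -0.71 for Pde4a to 1.84 for Pde4d (adjusted p = 0.302 for Pde4d and 0.155 for Pde7a, at 1.75). Without 1 library, in turn for each of the 12, the Pde4d difference ran from 1.04 (without macrophage PBS replicate 3) to 2.49 (without macrophage PBS replicate 2) and that of Pde2a from 0.51 to 1.62 (without neutrophil CGRP replicates 3 and 2), none of them called. Of all genes tested 2.36% differed, 1.21% toward macrophages having the more positive change and 1.15% the more negative, so that 2 of 8 members stood in the first direction and 0 in the second. Pde1b, Pde2a and Pde4d, which did not reach the filter in macrophages alone, entered this fit through their neutrophil counts. With quality weights Pde7a was called as well, at 2.01 (adjusted p = 0.0478), where its adjusted p was otherwise 0.102 to 0.379 over the alternatives run.

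The PBS levels from which these changes started were also unlike. In PBS-treated macrophages 6 of the 8 members were lower than in PBS-treated neutrophils and 0 were higher, where 35.4% of all genes tested were lower, 32.5% higher and 67.9% passed in either direction. Of the 6, Pde1b, Pde2a and Pde4d passed the count filter of this fit only through neutrophils, where they were higher, so the filter favoured that direction and the count is no support for it. With at least 10 counts required in every library 3 members were tested, of which Pde4b and Pde8a were called lower. Pde4b was lower by a log2 difference of -2.10 (SE 0.18, limma-voom, adjusted p = 3.7e-10). Pde2a gave 54 counts over the 3 neutrophil libraries and 1 over the 3 macrophage libraries, a ratio of 56.2 with an exact counting interval of 9.67 to 2260, and Pde4d gave 64 and 6, a ratio of 11.1 (4.83 to 31.4). These intervals cover counting error only. Without 1 library the fitted log2 difference of Pde4d, -3.61 with all libraries, ran from -4.26 to -2.81, called each time. Most of the exonic sequence near the 3′ end of Pde2a is shared with an overlapping gene model on the same strand, Gm45837, which was at 0 counts in every library, so the Pde2a count may not hold all its molecules. Pde1b, Pde7a and Pde8a were lower by -1.50, -1.47 and -0.81 (adjusted p = 0.00373, 0.00581 and 0.00186), whereas Pde3b at -0.63 and Pde4a at 0.63 did not pass (adjusted p = 0.107 and 0.188), although edgeR called Pde3b lower (adjusted p = 0.0465) and quality weights called Pde4a higher in macrophages (log2 difference 0.90, adjusted p = 0.0415). Cell type, medium and days in culture cannot be told apart in this comparison, and it uses the same PBS libraries as the CGRP comparisons.

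Across the 4 groups the order of levels was the same for Pde4b and Pde3b, with CGRP-treated macrophages highest, then CGRP-treated neutrophils, PBS-treated neutrophils and PBS-treated macrophages. No neighbours in that order overlapped for either gene. For Pde8a the means were 31.74 CPM in CGRP-treated neutrophils, 25.77 in PBS-treated neutrophils, 24.1 in CGRP-treated macrophages and 14.6 in PBS-treated macrophages, and the first 3 groups overlapped with their neighbours. In bulk cultures a change in the cells that express a gene and a change in RNA per cell cannot be told apart.

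Per kilobase of annotated exon, Pde8a had the highest level among the members in PBS-treated neutrophils (6.37 CPM per kb, against 4.97 for Pde4b) and in PBS-treated macrophages (3.61, against 1.15 for Pde4b). In CGRP-treated macrophages Pde4b was first at 12.71 CPM per kb, followed by Pde3b at 6.12 and Pde8a at 5.96. In CPM without the division by length, which suits tail-primed molecules, Pde4b and not Pde8a was first in neutrophils, and the first 3 places in macrophages were unchanged. The 8 members together summed to 42.3 ± 3.7 CPM in PBS-treated and 227.5 ± 13.9 CPM in CGRP-treated macrophages, and to 115.9 ± 5.50 and 151.1 ± 11.2 CPM in neutrophils (SD, n = 3). Of the summed member counts in macrophages, Pde4b held 28.5% with PBS and 59.7% with CGRP, Pde3b 14.4% and 23.7%, and Pde8a 34.6% and 10.5%. In neutrophils the share of Pde4b was 45.2% with PBS and 51.9% with CGRP.

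**Figure D3:**
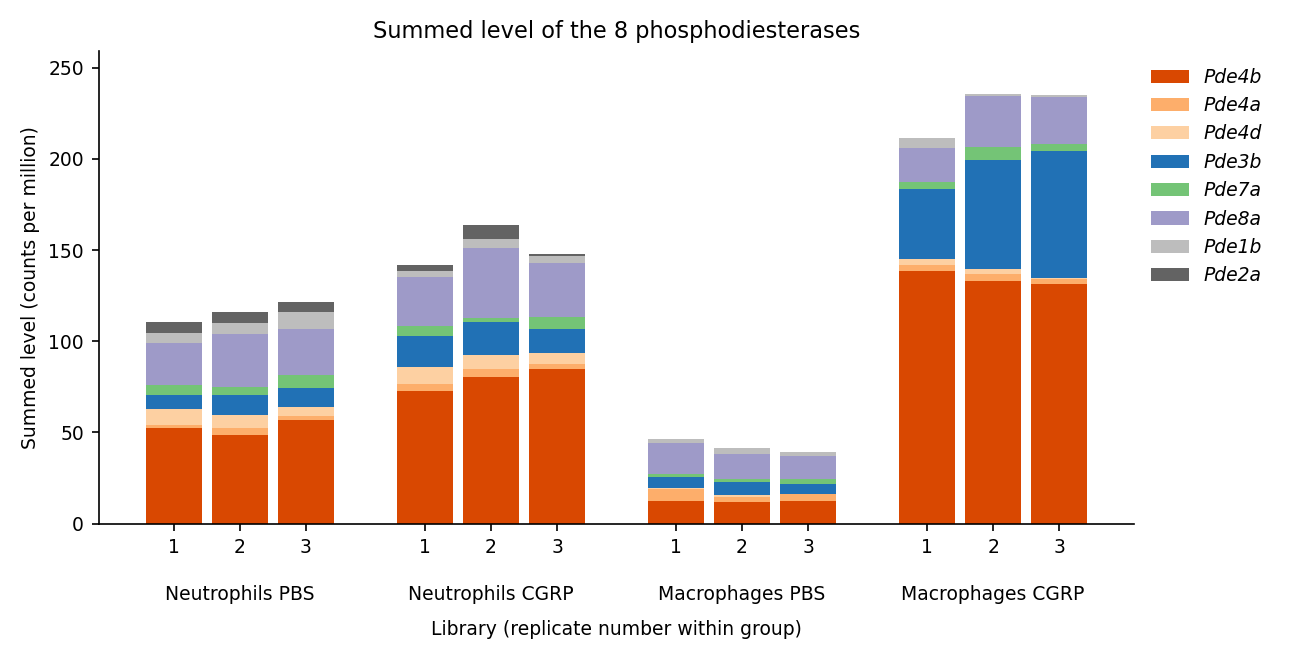
Summed level of the 8 phosphodiesterases in each of the 12 libraries (linear axis in CPM, TMM-scaled), stacked by gene. The sums lie between 39.06 and 46.33 CPM in PBS-treated macrophages and between 211.5 and 235.7 CPM in CGRP-treated macrophages.

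Of the 16 other phosphodiesterase genes, Pde6d alone was abundant enough to be tested. Pde6d encodes a prenyl-binding chaperone and no hydrolase, and it was at 33.11 to 40.58 CPM in neutrophils and 32.03 to 36.54 CPM in macrophages, with log2 differences of 0.13 and 0.09 (limma-voom, adjusted p = 0.774 and 0.818). Pde7b, a cAMP-specific relative of Pde7a, gave 0, 2 and 1 counts in PBS-treated and 4, 6 and 5 counts in CGRP-treated macrophages, and in neutrophils 2, 3 and 3 against 7, 11 and 5. Without a filter on low counts its log2 difference in macrophages was 2.39 (limma-voom, adjusted p = 0.0317) and in neutrophils 1.44 (adjusted p = 0.378). Its counts in PBS-treated macrophages were all under the floor of 3, so the size of that difference and its call are uncertain. Pde8b, a relative of Pde8a, ran the other way, with 10, 14 and 19 counts in PBS-treated and 4, 7 and 2 in CGRP-treated macrophages, and 5, 5 and 4 against 1, 2 and 1 in neutrophils. Its unfiltered differences were -1.37 and -1.44 (adjusted p = 0.189 and 0.503).

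Among the receptors, G proteins and adenylyl cyclases that act on cAMP, the genes that passed the test were receptors and their accessory proteins. No G protein or cyclase tested did. In macrophages 2 of 11 tested genes of this group rose and 2 fell, and in neutrophils 1 of 11 rose and 1 fell. Of all genes tested 3.46% were called higher and 3.97% lower in macrophages, and 1.51% and 1.02% in neutrophils. Ramp3, whose product turns CALCRL into an adrenomedullin receptor, rose by a log2 change of 4.18 in macrophages, from 0.7166 to 1.792 CPM with PBS to 25.04 to 26.55 CPM with CGRP (limma-voom, adjusted p = 9.19e-06), and by 2.52 in neutrophils (adjusted p = 0.000327). Its PBS libraries held only 2 to 6 counts each, so it passed the count filter through the CGRP libraries and the size of its change is uncertain. Calcrl, which encodes the CALCRL part of the CGRP receptor, fell by 1.75 in macrophages (adjusted p = 0.00335). In neutrophils the Calcrl difference was -0.64 and did not pass (limma-voom, adjusted p = 0.0864). The difference between its changes in the 2 cell types did not pass either (limma-voom interaction, adjusted p = 0.188). Ptger4, a prostaglandin E2 receptor, fell by 2.33 in macrophages (adjusted p = 0.00492). Ptger4 gave 25, 19 and 20 counts with PBS and 3 in each CGRP library, which is the floor. It therefore passed the count filter through the PBS libraries, and the size of its fall is uncertain. Ptger4 lost its call without CGRP replicate 2 (adjusted p = 0.0573). Adora2b, an adenosine receptor that raises cAMP, rose by 0.78 in macrophages (adjusted p = 0.0419). This call was lost without any 1 of the 3 PBS libraries or CGRP replicate 2 or 3 (adjusted p = 0.0763 to 0.151). It was also lost by DESeq2 (adjusted p = 0.0611), and in limma-voom with library totals without TMM (0.0721) or no filter on low counts (0.0811). In neutrophils Ramp1, the CGRP co-receptor, fell by 0.46 (adjusted p = 0.00336). Its difference in macrophages was -0.09 (limma-voom, adjusted p = 0.808), and its interaction did not pass (limma-voom interaction, adjusted p = 0.319). The median log2 change of the group was -0.15 in neutrophils and 0.053 in macrophages.

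Among protein kinase A subunits, inhibitors and other cAMP effectors, 2 of 8 tested rose and 1 fell in neutrophils, and 0 of 8 rose and 1 fell in macrophages, where 2.53% and 7.43% of all genes were called in either direction. The gene that fell in both was Pkib, an inhibitor of the kinase, by 1.42 in neutrophils (limma-voom, adjusted p = 0.00343) and by 1.87 in macrophages (adjusted p = 1.76e-06), from 162 to 214.2 CPM with PBS to 44.14 to 56.22 CPM with CGRP in the latter. Prkar1a, a regulatory subunit, rose by 0.63 in neutrophils (adjusted p = 3.79e-05). Pkig, another inhibitor, rose by 0.48 in neutrophils (adjusted p = 0.0471), a call lost without any 1 of the 6 libraries (adjusted p = 0.0745 to 0.17). The medians of this group were -0.0495 in neutrophils and 0.21 in macrophages.

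Of the anchoring and partner proteins that hold phosphodiesterases and the kinase in place, 1 of 14 tested rose and 0 fell in neutrophils, and 0 of 13 rose and 1 fell in macrophages, with medians of -0.0355 and 0.057. These counts stand beside 2.53% of all genes called in neutrophils and 7.43% in macrophages, and 1 of 13 is near the latter. Akap10, an anchoring protein, fell by 1.35 in macrophages (limma-voom, adjusted p = 0.00668). Ndel1, a dynein regulator among the partners listed, rose by 0.37 in neutrophils (adjusted p = 0.0245) and was not called without CGRP replicate 2 or 3 or without PBS replicate 1, 2 or 3 (adjusted p = 0.065 to 0.13). Of the 9 genes that make or respond to cGMP, 0 were tested in neutrophils and 1 in macrophages, which did not pass.

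Among genes known to be induced by cAMP, 7 of 14 tested rose and 0 fell in neutrophils, where 1.51% of all genes were called higher and 1.02% lower. In macrophages 7 of 11 rose and 1 fell, where 3.46% of all genes were higher and 3.97% lower, with median log2 changes of 0.65 and 0.93. The list was drawn up with earlier results of these libraries known and is no independent evidence of a direction. Thbs1, which encodes the matrix protein thrombospondin-1, rose by a log2 change of 2.39 in neutrophils and 5.02 in macrophages (limma-voom, adjusted p = 6.07e-11 and 1.43e-10). Nr4a2, an orphan nuclear receptor, rose by 1.47 and 4.22 (adjusted p = 0.000279 and 3.38e-06). In macrophages its PBS libraries held only 4, 7 and 11 counts, so it passed the count filter there through the CGRP libraries. The size of that change is uncertain, and without 1 library it ran from 3.79 to 4.60. Fos, an immediate-early transcription factor, and Hdc, which makes histamine, rose by 1.30 and 1.40 in neutrophils (adjusted p = 1.69e-06 and 1.17e-09). Fos also rose in macrophages, by 0.77 (limma-voom, adjusted p = 0.00149). In macrophages Crem, which encodes the cAMP-response element modulator, rose by 3.68 and Junb, another immediate-early factor, by 1.08 (adjusted p = 5.4e-09 and 0.000125). Junb also rose in neutrophils, by 0.35 (limma-voom, adjusted p = 0.039). Crem in neutrophils, at 0.81, did not pass (adjusted p = 0.0692), and was called without CGRP replicate 1, at 1.00 (adjusted p = 0.0182, over its alternatives 0.0182 to 0.261).

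**Figure D4:**
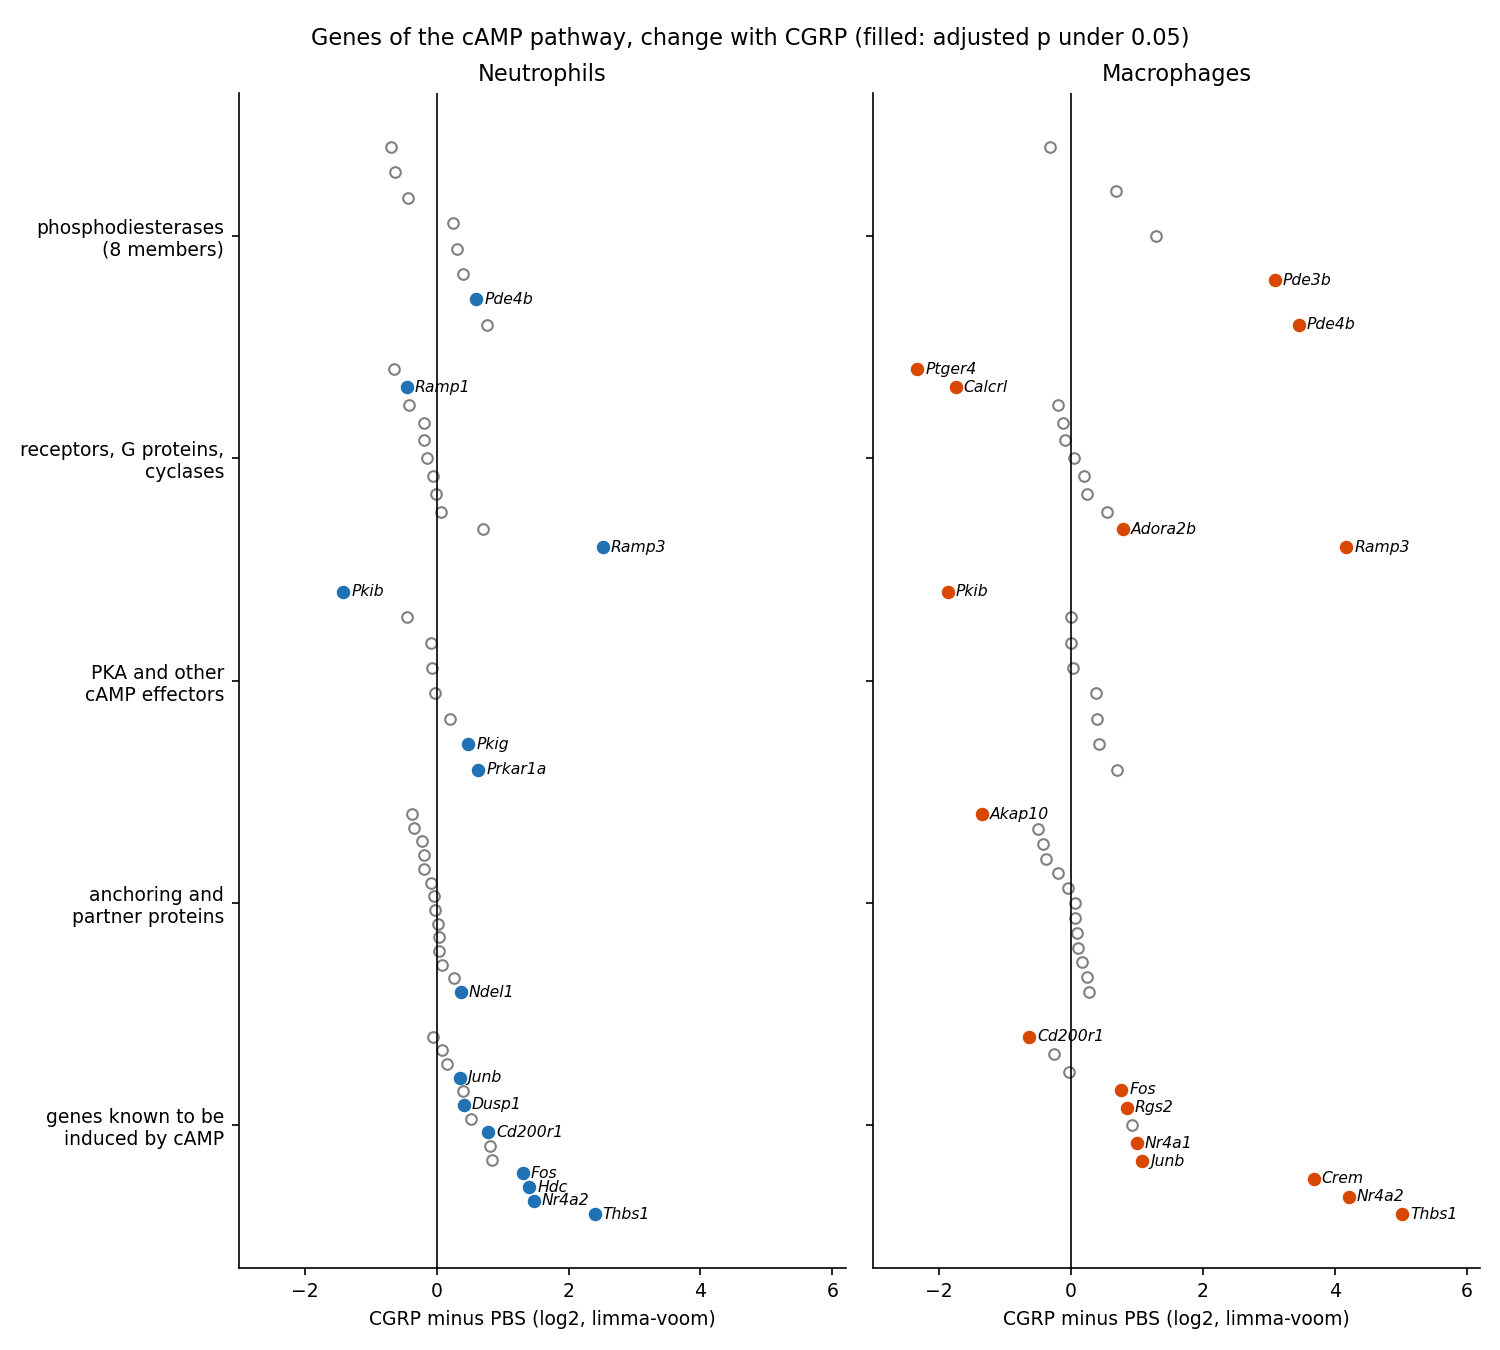
Log2 difference between CGRP and PBS for each tested gene of 5 lists in neutrophils (left) and macrophages (right), sorted within each list. Filled points are genes with an adjusted p under 0.05 (limma-voom), named beside the point. In macrophages the filled points of the phosphodiesterases are Pde3b at 3.09 and Pde4b at 3.46.

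The genes whose levels followed Pde4b most closely over the 12 libraries, after each cell type's mean was subtracted, were Crem (Pearson r = 0.993), Got1, the cytosolic aspartate aminotransferase (r = 0.990), and Btg2, an antiproliferative gene (r = 0.988), out of 10693 genes compared. Among the members, Pde3b was closest to Pde4b (r = 0.971), followed by Pde8a (r = 0.786). These values describe 12 libraries that share the CGRP treatment, and most of their range lies between PBS-treated and CGRP-treated macrophages.

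Markers of other cells were checked beside these results. In neutrophils 0 of the 44 tested markers of 10 cell types passed the limma-voom test with CGRP and 4 had an unadjusted p under 0.05, which 12.8% of all genes had. Basophil and mast cell markers, led by Prss34, summed to 953.6 to 1171 CPM, eosinophil markers, led by Prg2, to 521.9 to 643 CPM and erythroid markers, led by Hbb-bs, to 4428 to 5745 CPM in neutrophil libraries. In macrophages 1 of 28 tested markers rose, the T cell list's Cd4, at 0.8961 to 3.583 CPM with PBS and 5.156 to 7.523 CPM with CGRP, while Cd3e and Cd3g were at 0 in all 6 libraries, and 8 of the 28 had an unadjusted p under 0.05, which 19.8% of all genes had. The dendritic cell list, led by Ccr7, summed to 12.84 to 13.73 CPM with PBS and 15.93 to 25.08 CPM with CGRP, and its 1 tested marker did not pass. Other lists were also separated between the macrophage groups in their summed level. The macrophage list was at 11000 to 11580 CPM with PBS and 11680 to 13510 CPM with CGRP, the neutrophil list at 295.6 to 387.4 and 404.3 to 436.7 CPM, the B cell list, of which Cd79b alone was detected, at 31.17 to 32.56 and 37.12 to 39.77 CPM, and the T cell list at 1.195 to 3.583 and 5.892 to 7.809 CPM. The eosinophil list, led by Ccr3, was lower with CGRP, at 9.674 to 12.3 CPM with PBS and 6.52 to 9.058 CPM with CGRP. In neutrophils the natural killer cell list, led by Nkg7, was lower with CGRP without overlap, at 97.46 to 108 CPM with PBS and 69.47 to 95.51 CPM with CGRP. The part of these cells in the phosphodiesterase changes was not tested.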

How the data were processed

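The authors deposited raw counts per gene, 1 table per cell type, made with the nf-core RNA-seq pipeline in its molecular-identifier mode, STAR on GRCm38 and featureCounts, per the labels and the study's methods. The annotation release and strand setting are not given in the sources used here. Library totals ran from 2002559 to 3631989 counts. Counts of 6 libraries per cell type were compared between CGRP and PBS with limma-voom (limma 3.58.1, TMM from edgeR 4.0.16, filterByExpr, two-sided, Benjamini-Hochberg, adjusted p under 0.05). The difference between cell types and the PBS comparison used all 12 libraries. edgeR quasi-likelihood, DESeq2 1.42.0 and other filters and scalings were alternatives. On simulated data 4-fold changes were recovered for 97.9% of changed genes in neutrophils (9822 genes) and 96.9% in macrophages (9415 genes), and 2-fold changes for 80% and 61.9%. For the difference between cell types (10714 genes) the shares were 81.8% at 4-fold and 31.2% at 2-fold. The changed genes were drawn at random from all genes that passed the filter, so these shares do not apply to members with few counts. Gene positions came from GENCODE M21 on GRCm38. The members and lists were chosen with earlier results of these data known. All members were named, and of each other list at most the 4 genes with the smallest adjusted p under 0.05 per cell type, the 3 most abundant other phosphodiesterases, and the 3 genes most like the member with the smallest p. A gene of the receptor list is not reported here and was left out of that list's counts.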

Additional observations from a re-analysis of the deposited data

Results flagged for a closer look

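The effect of CGRP on 2 members differed between the cell types by a test of the difference itself. For Pde4b the log2 change in macrophages exceeded that in neutrophils by 2.86 (limma-voom interaction, adjusted p = 1.98e-08), and all 3 CGRP libraries lay above all 3 PBS libraries in each cell type. For Pde3b the excess was 2.33 (adjusted p = 0.00146), with the same separation in each cell type. Both genes started from a lower mean level in PBS-treated macrophages than in PBS-treated neutrophils, a difference that passed the test for Pde4b and not for Pde3b. The part of culture medium and days in culture, which differ with the cell type, cannot be told apart from the cell type.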

How the results depend on the processing

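The rises of Pde4b and Pde3b in macrophages and their larger size there kept direction and call under every alternative run. The genes called in neutrophils numbered 248 and fell to 137 in 1 fit over the 12 libraries; without 1 library they ran from 138 to 234 (138 without PBS replicate 1 or 2, 153 without CGRP replicate 2), and the members called from 0 to 1, 0 being without PBS replicate 2. In macrophages 698 genes became 1406 with quality weights and 1050 in 1 fit over the 12 libraries, and 347 to 765 without 1 library (347 without PBS replicate 1, 348 and 439 without CGRP replicates 2 and 3). The members called there were 4 with quality weights, Pde7a and Pde8a added, and 2 to 3 without 1 library. For the difference between cell types, 252 genes became 520 with quality weights, Pde7a added, and 149 to 328 without 1 library, the lowest without macrophage PBS replicate 1. Of the 6 members lower in PBS-treated macrophages 2 were called with at least 10 counts in every library, where 3 members were tested. Without 1 library the log2 difference ran from -0.657 to 0.035 for Pde7a in neutrophils, from -0.583 to 0.061 for Pde4a in macrophages and from -0.037 to 1.116 for the Pde1b interaction, none of them called. Scaling by library totals moved the median interaction of all genes from 0.0197 to -0.098 and the numbers called higher and lower from 148 and 100 to 150 and 64 in neutrophils, from 325 and 373 to 245 and 405 in macrophages, from 129 and 123 to 88 and 154 for the interaction and from 3472 and 3791 to 3720 and 3441 for PBS-treated macrophages against neutrophils. With a replicate block 266, 915 and 337 genes were called and no member call changed; same-numbered libraries did not deviate together (r from -0.011 to 0.131 in neutrophils and -0.171 to 0.256 in macrophages), so the numbers were not taken as pairs. Members under about 10 counts per library, Pde2a and Pde4d in macrophages among them, rest on few counts, and the part of depth in this was not tested.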
